A study of Mus musculus with 9 samples.

Results

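The genes of glycolysis and pyruvate metabolism were examined in mouse epicardium cardiosphere-derived cells. The set held 33 genes named in a list (glucose carriers, the enzymes of glycolysis, lactate dehydrogenase, monocarboxylate carriers, and the subunits and kinases of pyruvate dehydrogenase), and they were found by gene name in 34 of the 54532 rows of the deposited table, since Aldoa has 2 identifiers. RNA sequencing libraries came from cultured heart cells of C57BL/6 mice, labelled as ventricle, in 3 groups of 3 libraries. The pECDC group was labelled primary cardiosphere-derived cells from heart explants, untreated. The iECDC group was the same kind of cell after immortalization with hTERT, the catalytic subunit of telomerase, delivered by a lentivirus, at passage 30 and untreated. The third group was labelled as such immortalized cells at passage 30 after 3 days with SB431542, a small molecule that blocks the type I receptor of TGF-β. For these treated libraries the methods of the study name another cell, a single epithelial clone derived from treated pECDCs, so they were set beside both the iECDC and the pECDC libraries, and the start cells cannot be told apart. Passage and hTERT differ together between pECDCs and iECDCs and cannot be told apart either. The labels do not say that libraries of a group came from separate mice or cultures, so the p-values measure the spread between these libraries, which may be technical.

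Glycolysis breaks glucose down to pyruvate in the cytosol. Hexokinase traps glucose as glucose 6-phosphate, phosphofructokinase commits it to breakdown, and the lower enzymes from Gapdh to pyruvate kinase make ATP and NADH. Lactate dehydrogenase then interconverts pyruvate and lactate, monocarboxylate carriers move lactate across the membrane, and pyruvate dehydrogenase instead feeds pyruvate into the tricarboxylic acid cycle unless PDH kinases phosphorylate and switch it off. The adult heart draws most of its energy from fatty acids, whereas proliferating cells in culture typically rely on glycolysis to a larger degree.

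Total counts were 19462912 to 23951392 in pECDC, 16568306 to 20204216 in iECDC and 17063137 to 20849975 in SB431542-treated libraries. The set took 1.55 to 1.59%, 1.63 to 1.74% and 1.72 to 1.91% of them. Libraries that stood apart were iECDC replicate 3 and SB431542-treated replicate 2, with a chi-square per degree of freedom of 24.9 to 30.8 and 70.3 to 71.5 against the others of their group, where the remaining pairs gave 2.70 to 4.61. Ctgf, a target of TGF-β signalling, stood at 431, 442 and 459 FPKM (fragments per kilobase of gene, scaled to the library) in iECDCs and at 27.4, 70.9 and 30.7 FPKM in treated replicates 1, 2 and 3, so replicate 2 had fallen least. In 20 of the 33 genes this replicate lay closer to the iECDC mean than both other treated libraries did. The 6 cardiosphere-derived cell markers (Eng, Thy1, Ly6a, Pdgfra, Pdgfrb and Col1a1) summed to 622 to 1100 FPKM over all libraries, whereas endothelial, cardiomyocyte, haematopoietic and skeletal muscle markers summed to at most 0.165, 1.68, 2.04 and 0.294 FPKM. Much of the first sum was 1 gene, as the highest single gene reached 654, 601 and 772 FPKM in pECDCs, iECDCs and treated cells. The epicardial list (Wt1, Tbx18, Tcf21, Upk3b, Msln, Krt8 and Krt18) summed to 20.3 to 21.2 FPKM in pECDCs, 19.4 to 25.9 FPKM in iECDCs and 26.1 to 45.2 FPKM in treated cells. Most of this was 1 gene, which reached 20.3, 25.0 and 41.8 FPKM, and 1, 3 and 2 of the 7 genes had at most 3 counts in each library. Wt1, Upk3b, Tcf21 and Tbx18 were 4.40, 3.45, 1.47 and 0.65 higher on the log2 scale in treated cells than in iECDCs (adjusted p = 0.00615, 0.000912, 0.00565 and 0.0626, edgeR). Tbx18 thus did not pass, and Wt1 and Upk3b were too low in the untreated groups to be tested between iECDCs and pECDCs. The part of the epicardial list in the results was not tested, and in bulk RNA fewer cells of a type and less RNA per cell cannot be told apart.

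In all 3 groups the highest mean levels per gene length were those of Pkm and Ldha. Pkm, pyruvate kinase, had means of 777, 871 and 764 FPKM in pECDCs, iECDCs and treated cells, and Ldha, lactate dehydrogenase A, had 720, 781 and 743 FPKM. In treated cells their ranges overlapped (688 to 872 and 668 to 877 FPKM), so their order there was not beyond the spread. Eno1, Aldoa, Pgk1, Pgam1 and Tpi1 came next, between 293 and 669 FPKM. The ranges of Eno1 and Aldoa overlapped in pECDCs (499 to 521 and 491 to 513 FPKM), so their order there was not beyond the spread. Gpi1, the isomerase after hexokinase, and Slc2a1, the main glucose carrier of proliferating cells, followed at 95.2 and 64.8 FPKM in pECDCs. At the other end, Slc2a3 and Aldoc, known mainly from the brain, stayed at or below 0.417 and 0.228 FPKM in every library, and Aldoc had 4 to 15 counts. The second Aldoa identifier (ENSMUSG00000114515), which lies upstream on the same strand, had 8 to 33 counts.

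Gapdh, glyceraldehyde 3-phosphate dehydrogenase and a common reference gene, did not follow its neighbours in the pathway. It was listed at 5.85, 6.00 and 6.00 FPKM in pECDCs, at 64.7, 5.02 and 3.43 FPKM in iECDCs and at 26.0, 7.51 and 4.27 FPKM in treated cells. Replicate 1 of the last 2 groups was far above the rest, and every value lay below those of Pgk1, Pgam1, Eno1 and Pkm. The transcript annotation (GENCODE M21) holds 74 pseudogenes that match the Gapdh transcript with at least 95% identity over 300 bases or more, and together they had 2089 to 3610 counts per library, where Gapdh itself had 218 to 5399. Over the 9 libraries these pseudogenes held 243% of the counts of the gene, against at most 1.63% for any other gene of the set. The level of Gapdh is therefore uncertain, and none of its differences passed the test with all libraries (adjusted p = 0.165, 0.525 and 0.194 by edgeR in the 3 comparisons). Its calls changed with the libraries kept. Without iECDC replicate 3 it passed as higher in iECDCs than in pECDCs (log2 2.56, adjusted p = 0.00264, edgeR). Without treated replicate 2 it was higher in treated cells than in pECDCs (1.35, 0.00455). Without both it was lower in treated cells than in iECDCs (-1.22, 0.0349).

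**Figure D1:**
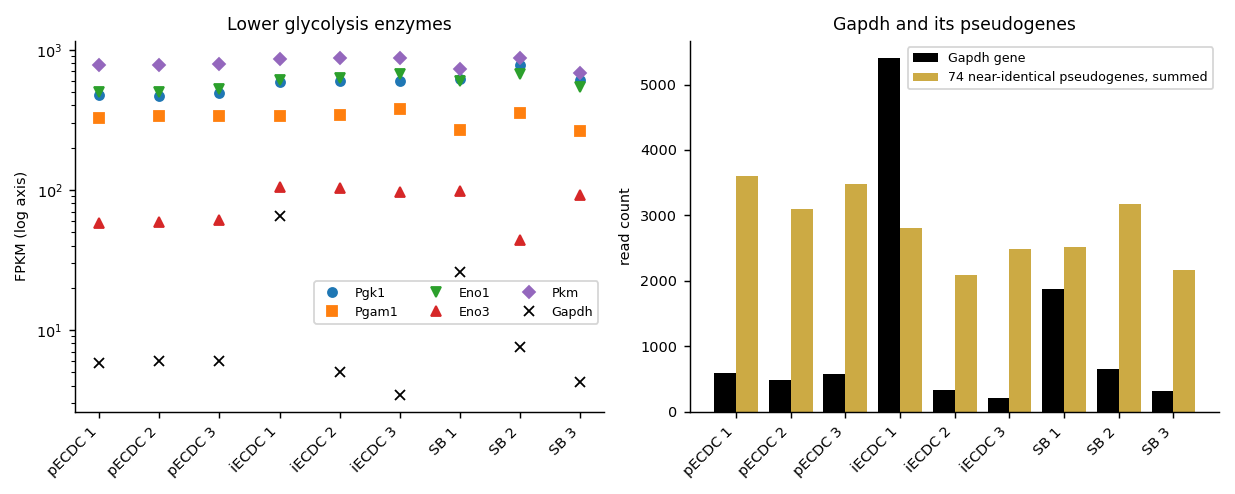
Left, FPKM of 6 lower glycolysis enzymes in each library on a log axis; right, read counts of Gapdh (black) and the sum of its 74 near-identical pseudogenes (yellow) in each library. Gapdh reached 5399 counts in iECDC replicate 1 and 1882 in SB431542-treated replicate 1 and was between 218 and 653 elsewhere, whereas the pseudogenes stayed between 2089 and 3610.

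A second value needs care. The count of Pkm in pECDC replicate 3 was 74461, whereas its FPKM of 785 corresponds to 91686 counts, 23.1% more; no other value of the table showed such a mismatch. With the deposited count Pkm was 0.25 ± 0.09 higher on the log2 scale in iECDCs than in pECDCs (SE, adjusted p = 0.089, edgeR), and with the count from the FPKM the difference was 0.15 (adjusted p = 0.128). The 3 iECDC libraries (866, 868 and 879 FPKM) lay above the 3 pECDC libraries (772, 773 and 785 FPKM). Counts per gene cannot tell the Pkm1 and Pkm2 splice forms apart.

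**Figure D2:**
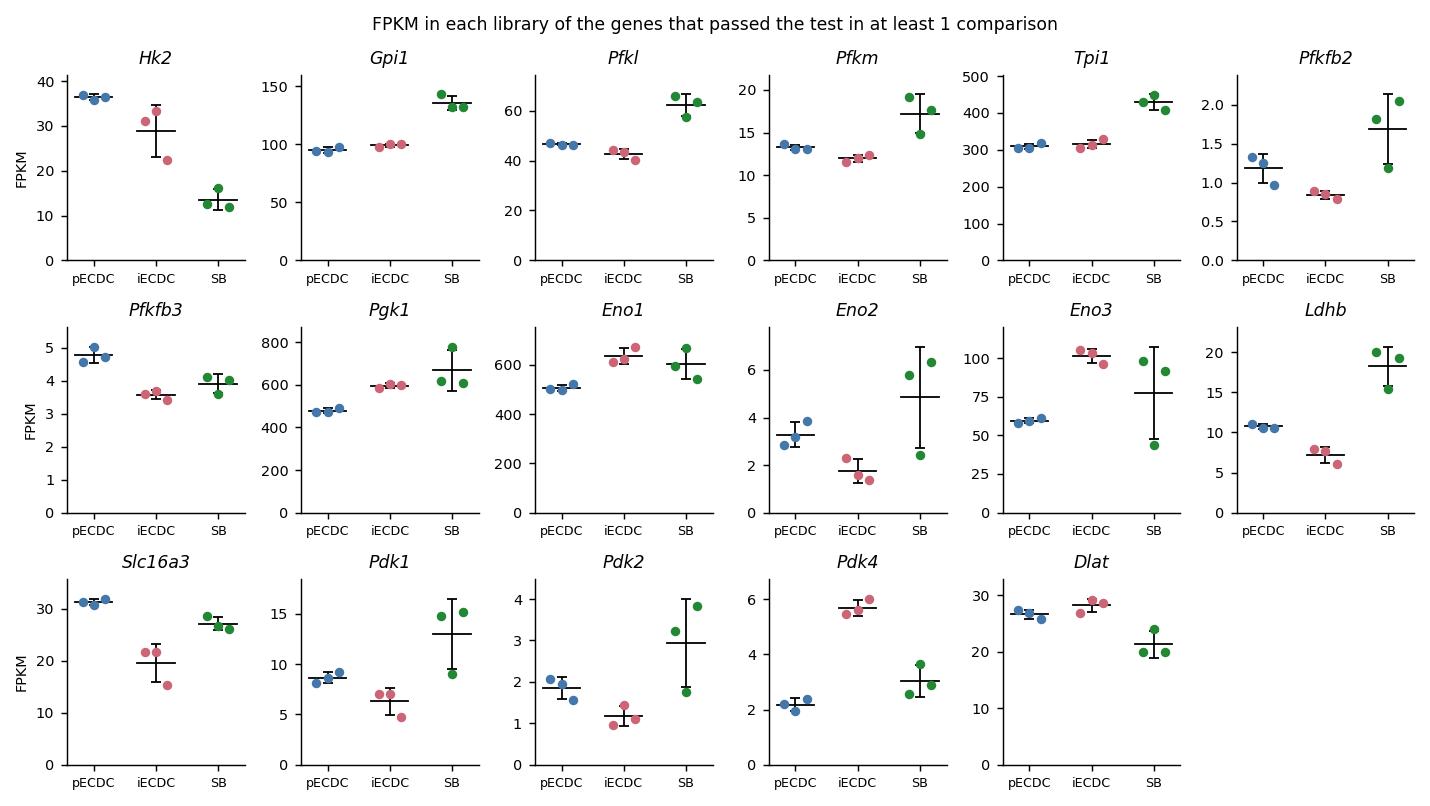
FPKM (vertical axes, from 0) of the 17 genes that passed the test in at least 1 comparison, 1 point per library and replicates 1 to 3 from left to right, for pECDCs (blue), iECDCs (red) and SB431542-treated iECDCs (SB, green). Horizontal lines are means and bars are SD over 3 libraries; Pdk4 was highest in iECDCs, Ldhb lowest there, and Hk2 lowest in treated cells.

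The first comparison asked what differed after immortalization and 30 passages. Between iECDCs and pECDCs, 4 of 34 rows were higher (Pdk4, Eno3, Eno1 and Pgk1) and 5 lower (Eno2, Slc16a3, Pdk2, Ldhb and Pfkfb3) at an adjusted p under 0.05 (edgeR quasi-likelihood test, Benjamini-Hochberg over all 13752 genes). These are 11.8% and 14.7% of the set, where 7.21% and 9.21% of all tested genes were called higher and lower. The 3 iECDC values lay wholly above or below the 3 pECDC values in 18 rows (52.9%, against 39.9% of all tested genes), 8 above and 10 below. The median log2 fold change of the set was 0.07, and that of all genes was -0.002.

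The kinases that inactivate pyruvate dehydrogenase did not move together. Pdk4, known from fasted muscle and heart, stood at 2.19, 1.93 and 2.40 FPKM in pECDCs and at 5.45, 5.60 and 6.01 FPKM in iECDCs. The groups did not overlap, and iECDCs were 2.58-fold higher (log2 1.37 ± 0.11, SE, adjusted p = 7.7e-05), the largest rise of the set among genes past the test. Pdk2, a kinase of most tissues, stood at 2.06, 1.94 and 1.56 FPKM in pECDCs and at 0.971, 1.44 and 1.11 FPKM in iECDCs, 1.60-fold lower (log2 -0.68 ± 0.19, adjusted p = 0.0387). Pdk1, the hypoxia-responsive kinase, was 8.12, 8.60 and 9.21 FPKM against 7.05, 7.07 and 4.73 FPKM and just missed the threshold (log2 -0.47 ± 0.14, adjusted p = 0.0517). Pdk3 overlapped between the groups (log2 0.05 ± 0.09, adjusted p = 0.742), as did Pdhb and Dlat, subunits of the complex these kinases act on. The E1 alpha subunit Pdha1 lay above in iECDCs without passing the test (log2 0.16 ± 0.06, adjusted p = 0.089).

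The 3 enolases, which make phosphoenolpyruvate, split by isozyme. Eno3, the muscle form, stood at 57.8, 59.0 and 61.1 FPKM in pECDCs and at 105, 103 and 96.2 FPKM in iECDCs. All 3 iECDC libraries were higher, by 1.70-fold (log2 0.76 ± 0.06, adjusted p = 9.39e-05). The ubiquitous Eno1 rose by less, from 501, 499 and 521 FPKM to 610, 624 and 674 FPKM (1.24-fold, log2 0.31 ± 0.07, adjusted p = 0.0153). Eno2, the neuronal form, fell from 2.83, 3.16 and 3.86 FPKM to 2.31, 1.56 and 1.36 FPKM (1.88-fold lower, log2 -0.91 ± 0.20, adjusted p = 0.0148). Of the other lower enzymes, Pgk1, which makes the first ATP of the pathway, rose from 474, 471 and 491 FPKM to 585, 603 and 602 FPKM (1.23-fold, log2 0.30 ± 0.06, adjusted p = 0.00977), while Pgam1 overlapped (log2 0.07, adjusted p = 0.544).

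Of the 4 lactate dehydrogenase and monocarboxylate carrier genes, Ldhb and Slc16a3 passed, both lower in iECDCs. Ldhb, the heart-type subunit of lactate dehydrogenase, stood at 11.1, 10.6 and 10.6 FPKM in pECDCs and at 7.92, 7.71 and 6.09 FPKM in iECDCs (1.5-fold lower, log2 -0.58 ± 0.12, adjusted p = 0.0097). The muscle-type subunit Ldha did not pass (log2 0.10 ± 0.06, adjusted p = 0.284). Slc16a3, the carrier MCT4 of lactate-exporting cells, fell from 31.4, 30.7 and 31.9 FPKM to 21.8, 21.7 and 15.4 FPKM (1.61-fold lower, log2 -0.68 ± 0.12, adjusted p = 0.00598), with replicate 3 lowest. The other carrier, Slc16a1, overlapped (log2 0.15 ± 0.09, adjusted p = 0.272). None of the 2 glucose carriers, 2 hexokinases and 8 rows of upper glycolysis enzymes passed in the edgeR test above. None passed by DESeq2 or by limma on log2(FPKM + 1) with all 6 libraries either. At an unadjusted p under 0.05 by edgeR, 1 hexokinase and 1 upper enzyme were lower. Hk2 came nearest, at 37.0, 35.8 and 36.5 FPKM in pECDCs against 31.0, 33.3 and 22.4 FPKM in iECDCs (log2 -0.35 ± 0.13, adjusted p = 0.10). It was past the threshold in 2 of its 14 alternative fits, where the adjusted p ranged from 0.000641 to 0.257. Among the bifunctional enzymes that set fructose 2,6-bisphosphate, the activator of phosphofructokinase, Pfkfb3 fell from 4.57, 5.03 and 4.72 FPKM to 3.59, 3.70 and 3.42 FPKM (1.35-fold lower, log2 -0.43 ± 0.07, adjusted p = 0.00487).

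Of these 9 calls, 4 (Pdk4, Eno3, Slc16a3 and Pfkfb3) passed in each of the 6 fits that left out 1 library, with adjusted p of at most 0.0401. Pgk1 missed without pECDC replicate 1 or 2 (adjusted p = 0.0703 and 0.0791), Eno1 without pECDC replicate 1, 2 or 3 (0.0916, 0.0983 and 0.0552) and Ldhb without pECDC replicate 1 (0.0568). Eno2 missed without pECDC replicate 2 or 3 or iECDC replicate 2 (0.0526, 0.0754 and 0.0555), and Pdk2 without pECDC replicate 1, 2 or 3 or iECDC replicate 1 (0.162, 0.137, 0.0588 and 0.102). Every log2 fold change kept its sign in those fits. Without iECDC replicate 3, 12 rows were higher and 9 lower, among 15.5% and 16.2% of all genes. Slc2a1 was then 0.12 higher on the log2 scale (adjusted p = 0.0452, 0.0452 to 0.997 over its alternatives), where it was -0.01 with all libraries. In that fit Hk1 and Pfkp also passed as higher (log2 0.14 and 0.19, adjusted p = 0.0149 and 0.00492, edgeR). Hk2 and Pfkm passed as lower (log2 -0.19 and -0.18, adjusted p = 0.00352 and 0.0268). With all 9 libraries in 1 fit, Pdk4 alone was higher and Pfkfb3, Ldhb and Slc16a3 were lower, and Eno3 missed (adjusted p = 0.101).

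**Figure D3:**
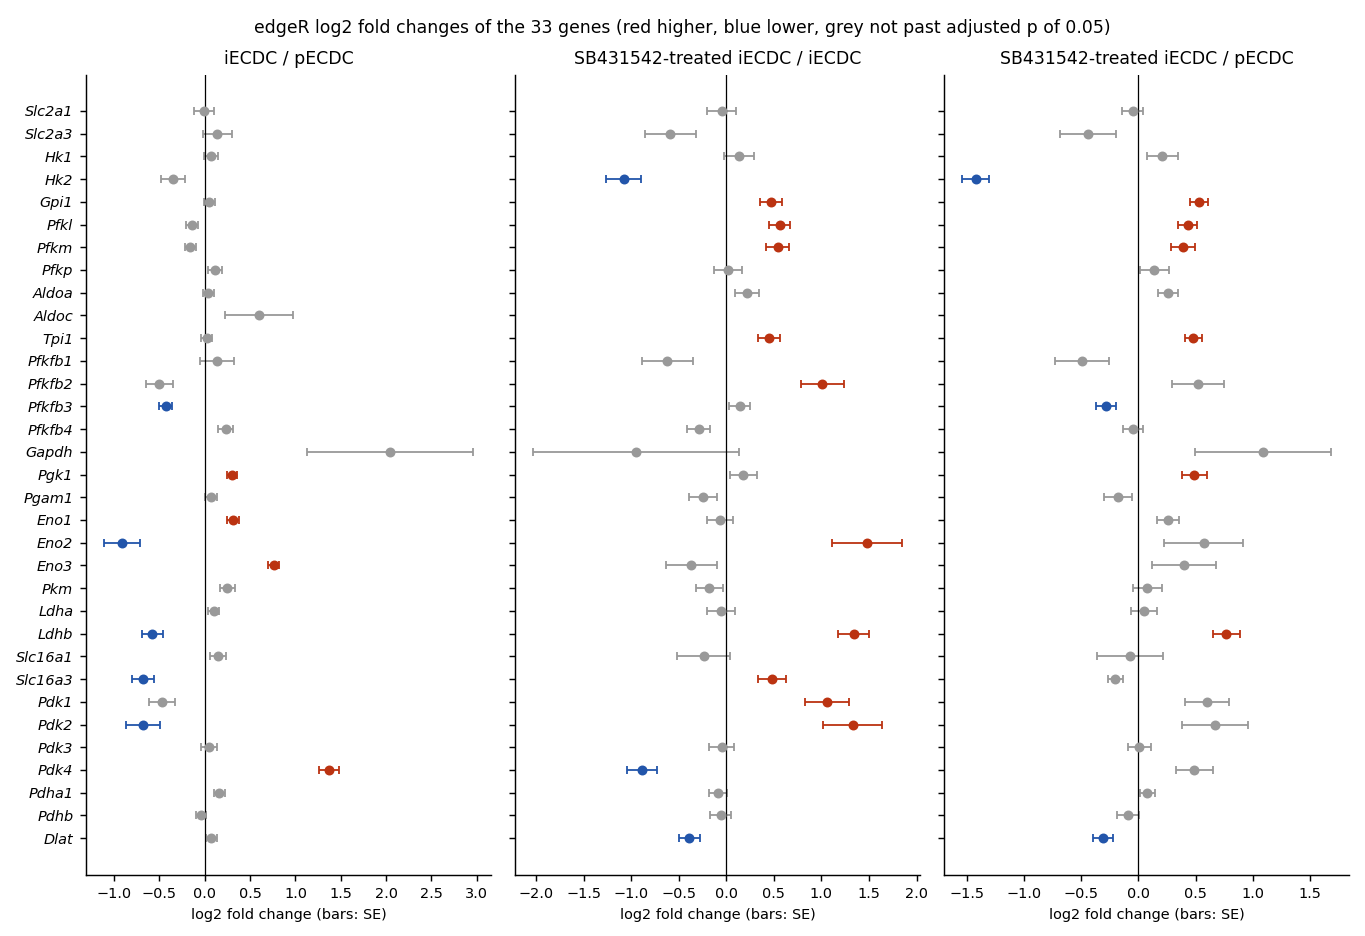
Log2 fold changes (horizontal axes) of the 33 genes in the 3 comparisons, from edgeR fits of 3 against 3 libraries, with bars of 1 SE. Red and blue mark genes higher and lower at an adjusted p under 0.05 and grey the others; Pdk4 had the largest rise among called genes in the left panel, Hk2 the largest fall in the middle and right panels, and Gapdh the widest bars in all 3.

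The second comparison asked what differed between the treated libraries and untreated iECDCs, whose start cells may also differ. Between treated and untreated iECDCs, 10 of 33 tested rows were higher (Eno2, Ldhb, Pdk2, Pdk1, Pfkfb2, Pfkl, Pfkm, Slc16a3, Gpi1 and Tpi1) and 3 lower (Hk2, Pdk4 and Dlat). The shares were 30.3% and 9.09%, where 16.0% and 14.0% of the 13559 tested genes were called higher and lower. Groups did not overlap in 19 rows (57.6%, against 46.5% of all genes), with 12 above and 7 below, and the median log2 fold change of the set was -0.05. Aldoc was too low to be tested. This comparison and the first share the iECDC libraries, so a value that is high in those 3 libraries moves both.

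Of the 2 hexokinases at the entry of the pathway, Hk2 passed the test. Hk2, the insulin-responsive and growth-related form, stood at 12.5, 16.2 and 12.0 FPKM in treated replicates 1, 2 and 3, all below the lowest iECDC value of 22.4 FPKM. It was 2.12-fold lower (log2 -1.08 ± 0.18, adjusted p = 0.00489). Hk1, the constitutive form, was 38.7, 26.4 and 33.3 FPKM against 30.8, 32.9 and 27.3 FPKM and overlapped (log2 0.13 ± 0.16, adjusted p = 0.572). The difference between the 2 forms was not tested on counts.

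The upper enzymes that rose did so by similar amounts. Gpi1 was 143, 132 and 132 FPKM in treated cells against 97.3, 100 and 100 FPKM (1.38-fold, log2 0.47 ± 0.11, adjusted p = 0.017). Pfkl, the liver-type phosphofructokinase and the main form here, was 65.8, 57.4 and 63.3 FPKM against 44.4, 43.3 and 40.2 FPKM (1.47-fold, log2 0.56 ± 0.11, adjusted p = 0.0103). Pfkm, the muscle type, was 19.2, 14.8 and 17.7 FPKM against 11.6, 12.0 and 12.4 FPKM (1.45-fold, log2 0.54 ± 0.12, adjusted p = 0.0138). The platelet type Pfkp overlapped between the groups (log2 0.02 ± 0.15, adjusted p = 0.941). Tpi1, which interconverts the triose phosphates, was 430, 450 and 408 FPKM against 306, 312 and 329 FPKM (1.37-fold, log2 0.45 ± 0.12, adjusted p = 0.0212). Aldoa, the aldolase between them, lay above in treated cells without passing (637, 551 and 604 FPKM against 524, 529 and 503 FPKM, adjusted p = 0.218). Pfkfb2, the heart-type bifunctional enzyme, rose from low levels, from 0.888, 0.855 and 0.789 FPKM to 1.82, 1.19 and 2.05 FPKM (2.01-fold, log2 1.01 ± 0.22, adjusted p = 0.0134). Pfkfb3 did not pass (log2 0.14, adjusted p = 0.356). Protein-coding genes overlap Pfkm (Senp1), Tpi1 (Spsb2), Pfkfb2 (Yod1) and Pfkp (Pitrm1) on the opposite strand. Their mean counts over all libraries were 946, 349, 144 and 2807, against 925, 18900, 176 and 1860 for Pfkm, Tpi1, Pfkfb2 and Pfkp. Apex2 and Iffo1 overlap Pfkfb1 and Gapdh in the same way, with mean counts of 327 and 452 against 58.1 and 1160. Whether strand was used in counting is not given in the sources used here. The levels of Pfkm, Pfkp, Pfkfb1, Pfkfb2 and Gapdh are therefore uncertain.

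In the lower pathway only Eno2 passed. It rose from 2.31, 1.56 and 1.36 FPKM to 5.79, 2.41 and 6.35 FPKM, with treated replicate 2 barely above the highest iECDC library (2.79-fold, log2 1.48 ± 0.37, adjusted p = 0.0198). Eno3 was 97.8, 43.5 and 91.6 FPKM in treated cells, so replicate 2 lay below all pECDC and iECDC libraries while the others lay near the iECDC values (log2 -0.37 ± 0.27, adjusted p = 0.316). Pgam1 (267, 352 and 261 FPKM), Pkm (731, 872 and 688 FPKM) and Slc16a1 (6.56, 14.2 and 6.74 FPKM) had the same split, with replicate 2 above both others. Without that library Pgam1, Pkm and Slc16a1 passed as lower (log2 -0.41, -0.29 and -0.71, adjusted p = 0.00742, 0.0388 and 0.000646), as did Slc2a3 and Pfkfb1 (-0.89 and -0.79, 0.0139 and 0.0373), and Aldoa passed as higher (0.27, 0.0418). Over all alternatives their adjusted p ranged from 5.29e-06 to 0.537, 3.95e-05 to 0.718, 8.5e-08 to 0.934, 0.00546 to 0.357, 0.00326 to 0.333 and 0.000306 to 0.496 in that order.

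Ldhb rose from 7.92, 7.71 and 6.09 FPKM to 20.0, 15.4 and 19.3 FPKM in treated cells. No values overlapped, and the rise was 2.53-fold (log2 1.34 ± 0.16, adjusted p = 0.0016), whereas Ldha stayed within the spread (log2 -0.06 ± 0.15, adjusted p = 0.774). Slc16a3 was 28.6, 26.7 and 26.2 FPKM against 21.8, 21.7 and 15.4 FPKM (1.39-fold, log2 0.48 ± 0.15, adjusted p = 0.0437).

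Among the PDH kinases, Pdk1 and Pdk2 rose and Pdk4 fell. Pdk1 reached 14.8, 9.0 and 15.2 FPKM against 7.05, 7.07 and 4.73 FPKM (2.09-fold, log2 1.06 ± 0.23, adjusted p = 0.0132). Pdk2 reached 3.23, 1.76 and 3.83 FPKM against 0.971, 1.44 and 1.11 FPKM (2.52-fold, log2 1.33 ± 0.31, adjusted p = 0.0157). Both were lowest in replicate 2 of the treated libraries, and neither overlapped with iECDCs. Pdk4 went from 5.45, 5.60 and 6.01 FPKM to 2.55, 3.66 and 2.88 FPKM (1.86-fold lower, log2 -0.89 ± 0.16, adjusted p = 0.00633). Dlat, the E2 core of pyruvate dehydrogenase, fell from 26.9, 29.1 and 28.6 FPKM to 19.9, 24.1 and 19.9 FPKM (1.31-fold lower, log2 -0.39 ± 0.11, adjusted p = 0.0321), and the E1 subunits Pdha1 and Pdhb did not pass (adjusted p = 0.508 and 0.703).

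Leaving out 1 library at a time, 4 of the 13 calls (Hk2, Ldhb, Pdk1 and Pdk4) passed in all 6 fits, with adjusted p of at most 0.049. Pfkl missed without iECDC replicate 2 or treated replicate 1 (0.0541 and 0.0508). Gpi1, Pfkm, Tpi1 and Pfkfb2 missed without iECDC replicate 1 or 2 or treated replicate 1 or 3, with adjusted p of 0.0616 to 0.0842, 0.0522 to 0.0674, 0.0646 to 0.105 and 0.0511 to 0.053. Eno2 missed without iECDC replicate 2 or 3 or treated replicate 1 or 3 (0.0628 to 0.0755), and Pdk2 without iECDC replicate 1 or 3 or treated replicate 1 or 3 (0.051 to 0.0727). Slc16a3 and Dlat passed only without treated replicate 2 among these fits and missed without each other library (0.0587 to 0.136 and 0.0626 to 0.146). No fold change turned its sign. Without treated replicate 2, 11 rows were higher and 8 lower, among 25.3% and 24.8% of all genes. Without iECDC replicate 3, 7 were higher and 2 lower, among 13.5% and 11.9% of all genes. With both of these libraries left out, an alternative chosen after the data were seen, 12 rows were higher and 12 lower, among 32.6% and 31.9% of all genes.

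The 250 bases upstream of the annotated starts of Ldhb, Eno2, Slc16a3, Pdk2 and Pdk4 are shown because these genes were past the threshold in both comparisons (RefSeq, GRCm38.p6, 5′ to 3′ on the strand of the gene). The comparisons share the iECDC libraries, which favours calls in opposite directions, so nothing is read from their being called in both. Capitals mark matches of ACGTG or its reverse complement CACGT, the core of a hypoxia response element, which the E-box CACGTG contains. Ldhb lies at chr6:142507958-142508207, Eno2 at chr6:124769674-124769923 and Pdk4 at chr6:5496279-5496528, all on the minus strand. The upstream regions of the 2 Pdk2 starts are chr11:95040876-95041125 and chr11:95041372-95041621 on the minus strand, and that of Slc16a3 is chr11:120948817-120949066 on the plus strand.
Ldhb: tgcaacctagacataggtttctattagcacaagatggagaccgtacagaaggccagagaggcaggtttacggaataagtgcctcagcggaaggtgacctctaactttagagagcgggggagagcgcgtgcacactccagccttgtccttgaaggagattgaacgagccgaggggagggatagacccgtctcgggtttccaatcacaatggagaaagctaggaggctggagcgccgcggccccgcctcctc
Eno2: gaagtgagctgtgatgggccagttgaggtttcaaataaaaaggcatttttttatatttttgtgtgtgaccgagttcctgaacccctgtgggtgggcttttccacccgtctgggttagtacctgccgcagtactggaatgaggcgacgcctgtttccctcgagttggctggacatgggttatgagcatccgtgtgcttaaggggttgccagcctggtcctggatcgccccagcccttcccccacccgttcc
Slc16a3: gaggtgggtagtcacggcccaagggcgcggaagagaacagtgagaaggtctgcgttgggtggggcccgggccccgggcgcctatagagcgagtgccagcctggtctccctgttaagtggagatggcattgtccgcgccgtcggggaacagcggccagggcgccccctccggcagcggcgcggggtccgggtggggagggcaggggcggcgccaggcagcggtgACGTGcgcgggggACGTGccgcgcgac
Pdk2, downstream start: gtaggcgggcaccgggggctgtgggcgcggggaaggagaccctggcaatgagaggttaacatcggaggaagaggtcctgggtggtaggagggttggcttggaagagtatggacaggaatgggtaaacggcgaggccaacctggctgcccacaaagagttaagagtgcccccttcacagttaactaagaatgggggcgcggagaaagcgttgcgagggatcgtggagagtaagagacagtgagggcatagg
Pdk2, upstream start: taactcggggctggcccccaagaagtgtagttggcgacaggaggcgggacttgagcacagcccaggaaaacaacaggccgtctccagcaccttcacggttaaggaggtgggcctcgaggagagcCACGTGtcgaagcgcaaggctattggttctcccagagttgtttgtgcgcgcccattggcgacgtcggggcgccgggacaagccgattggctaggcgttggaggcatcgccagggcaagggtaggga
Pdk4: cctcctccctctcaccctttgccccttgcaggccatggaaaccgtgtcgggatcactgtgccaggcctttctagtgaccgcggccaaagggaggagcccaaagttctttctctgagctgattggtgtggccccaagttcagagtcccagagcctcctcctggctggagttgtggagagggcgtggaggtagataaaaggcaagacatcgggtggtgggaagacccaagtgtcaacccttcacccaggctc
Slc16a3 held 2 matches and the upstream Pdk2 start held 1 E-box, read on both strands as 2 matches, while the windows of Ldhb, Eno2, Pdk4 and the downstream Pdk2 start held none. A match was found for 15 of the 32 genes of the set with a promoter in the table, in 19 of their 51 promoters (37.3%), against 16.6% of all 32851 promoters of the same length. The E-box was in 11.8% against 6.02%, and CAGAC or its reverse complement GTCTG, the letters of a SMAD box, in 29.4% against 42.2%. Of the printed windows CAGAC or GTCTG was in those of Eno2 and Slc16a3. Genes with several starts have overlapping windows, and a match of letters is not a bound site. The windows of the set and of all promoters were not matched for base composition. ACGTG holds a C followed by G, which CAGAC does not, so nothing is read from these shares.

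**Figure D4:**
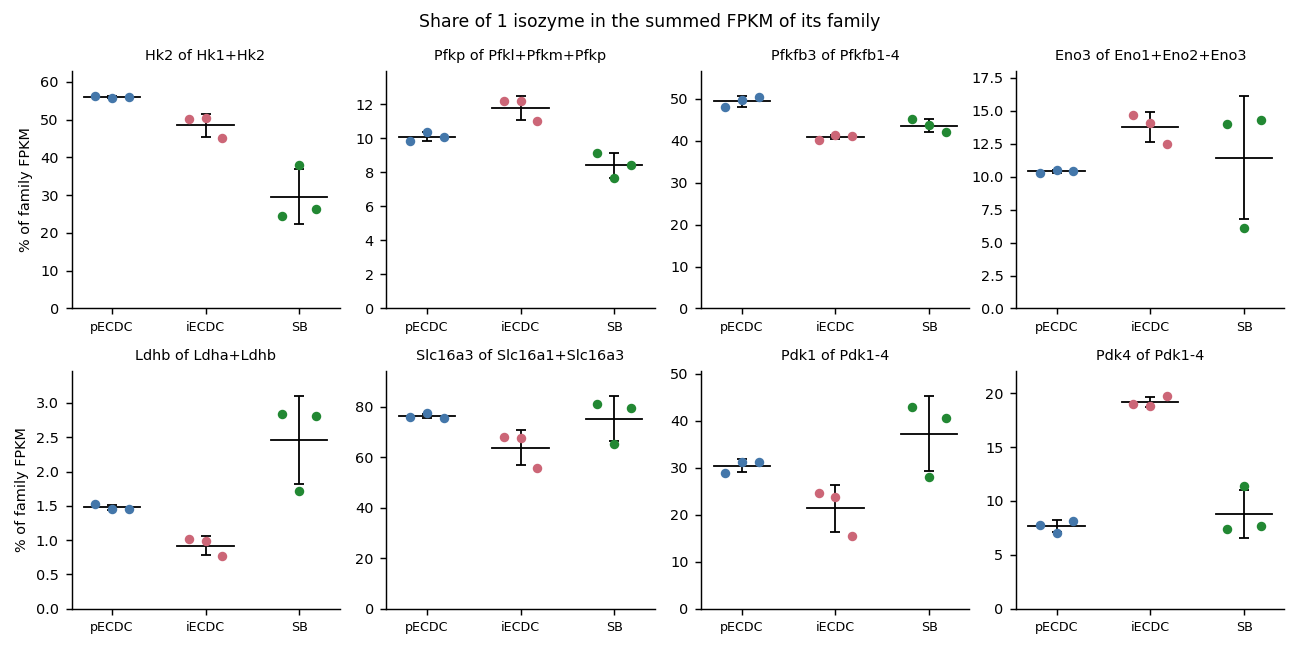
Share of 1 isozyme in the summed FPKM of its family (vertical axes in percent, from 0), 1 point per library and replicates 1 to 3 from left to right, for pECDCs (blue), iECDCs (red) and SB431542-treated iECDCs (SB, green), with means and SD over 3 libraries. Hk2 made up 55.7 to 56.2% of hexokinase FPKM in pECDCs and 24.5 to 38.0% in treated cells, and Pdk4 18.8 to 19.7% of PDH kinase FPKM in iECDCs against 7.02 to 11.4% elsewhere.

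The third comparison set the treated libraries beside pECDCs. Here 6 of 33 rows were higher (Ldhb, Gpi1, Pgk1, Tpi1, Pfkl and Pfkm) and 3 lower (Hk2, Dlat and Pfkfb3), or 18.2% and 9.09%, where 17.9% and 17.0% of the 14015 tested genes were. Groups did not overlap in 13 rows (39.4%, against 51.5% of all genes), with 9 above and 4 below. The median log2 fold change of the set was 0.21, with 22 of 33 values above 0. The largest fall was that of Hk2, from 37.0, 35.8 and 36.5 FPKM in pECDCs to 12.5, 16.2 and 12.0 FPKM (2.67-fold lower, log2 -1.42 ± 0.12, adjusted p = 0.000425). Ldhb went the other way, from 11.1, 10.6 and 10.6 FPKM to 20.0, 15.4 and 19.3 FPKM (1.70-fold, log2 0.77 ± 0.12, adjusted p = 0.00373). Gpi1 and Tpi1, the isomerases of glucose 6-phosphate and of the triose phosphates, were 1.44-fold and 1.40-fold higher (log2 0.53 ± 0.08 and 0.48 ± 0.08, adjusted p = 0.00298 and 0.00388). Pfkl was 1.35-fold and Pfkm 1.31-fold higher (log2 0.43 ± 0.08 and 0.39 ± 0.11, adjusted p = 0.00725 and 0.0276), and Pgk1 was 1.41-fold higher (log2 0.49 ± 0.11, adjusted p = 0.0142), with 780 FPKM in treated replicate 2 above 617 and 610 FPKM in the others. Dlat and Pfkfb3 were 1.24-fold and 1.21-fold lower (log2 -0.31 ± 0.09 and -0.28 ± 0.09, adjusted p = 0.0326 and 0.0467).

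Slc16a3, Pdk4, Pdk1, Pdk2 and Eno2 did not pass between treated cells and pECDCs. Their log2 fold changes were -0.20 ± 0.07, 0.49 ± 0.16, 0.60 ± 0.20, 0.67 ± 0.29 and 0.57 ± 0.34 (adjusted p = 0.0589, 0.0551, 0.0502, 0.11 and 0.231). The first 2 had groups that did not overlap, Slc16a3 below and Pdk4 above. Calls of Hk2, Ldhb, Gpi1, Tpi1 and Pfkl, 5 of 9, passed in all 6 fits that left out 1 library, with adjusted p of at most 0.0465. Pgk1 missed without pECDC replicate 1, 2 or 3 (0.062 to 0.0755). Pfkm, Pfkfb3 and Dlat passed among these fits only without treated replicate 2, and missed without each other library (0.0773 to 0.1, 0.0648 to 0.159 and 0.0874 to 0.117). Without treated replicate 2, 17 rows were higher and 10 lower, among 31.7% and 32.3% of all genes. Slc16a3 then passed as lower, and Pdk4, Pdk1, Pdk2 and Eno2 as higher. Their log2 fold changes were -0.19, 0.33, 0.81, 0.94 and 0.90 in that fit (adjusted p = 0.002, 0.0296, 1.45e-10, 7.15e-06 and 3.59e-07, edgeR). Over all alternatives their adjusted p reached 0.209, 0.187, 0.155, 0.312 and 0.547, so none of these calls held in every fit. They were past the threshold in 4, 3, 5, 1 and 1 of 14 alternatives, so Pdk2 and Eno2 passed only without that library. By edgeR, Pdk4 also passed without treated replicate 1 (0.0486), and Pdk4 and Pdk1 with all 9 libraries (0.0334 and 0.0461).

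Isozyme shares compare forms within a library and do not depend on library scaling. Hk2 made up 56.0 ± 0.30% of the summed FPKM of Hk1 and Hk2 in pECDCs (SD, n = 3), 48.5 ± 3.0% in iECDCs and 29.6 ± 7.3% in treated cells. The 3 groups did not overlap, and treated replicate 2 was highest of its group at 38.0%. Pdk4 made up 7.65 ± 0.58%, 19.2 ± 0.45% and 8.83 ± 2.2% of the 4 PDH kinases, and Pdk1 made up 30.4 ± 1.4%, 21.3 ± 5.1% and 37.2 ± 8.0%. Slc16a3 made up 76.3 ± 0.92%, 63.9 ± 6.9% and 75.4 ± 8.8% of both monocarboxylate carriers, with iECDC replicate 3 lowest at 55.9%. Ldhb never made up more than 2.84% of lactate dehydrogenase FPKM, so its changes left Ldha as nearly the whole of it. Pfkl remained the main phosphofructokinase, at 68.0 to 73.4% in every library. An exact permutation test of 3 against 3 libraries cannot give a p below 0.1, and after Benjamini-Hochberg adjustment over the 45 shares compared the smallest p was 0.161, so the shares are descriptions.

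Other genes of glucose and pyruvate metabolism were taken from lists and are given as counts, to be read against the 7.21% and 9.21% of all tested genes called higher and lower in the first comparison. Between iECDCs and pECDCs, 3 of 8 pentose phosphate genes were higher and 1 lower, 1 of 17 tricarboxylic acid cycle genes was higher, and 2 of 10 other glycolysis and gluconeogenesis genes were higher and 1 lower. Those past the test with a log2 change of at least 0.5 were Pgd, the second dehydrogenase of the pentose phosphate pathway (0.55 ± 0.07, adjusted p = 0.00106, and 0.178 with all 9 libraries in the fit), and the hypoxia-inducible factor Epas1 (1.21 ± 0.19, adjusted p = 0.00298), the latter at 0.330 to 0.397 FPKM in pECDCs and 0.676 to 0.895 FPKM in iECDCs. No gene of 8 on the list of other pyruvate dehydrogenase and lactate genes was called there in the edgeR test above (2 were higher and 1 lower at an unadjusted p under 0.05). None was called by DESeq2 or by limma on log2(FPKM + 1) with all 6 libraries. In the same comparison 1 of 8 other carriers was lower, 1 of 8 glycogen genes was higher and 1 lower, and 2 of 13 regulators were higher.

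In the treated libraries, where 16.0% of all tested genes were called higher and 14.0% lower, 4 of 8 glycogen genes were higher than in untreated iECDCs and none lower by edgeR or limma (1 at an unadjusted p under 0.05 by edgeR, and 1 called by DESeq2). Gyg, the primer of glycogen synthesis, stood at 117, 34.2 and 106 FPKM in treated replicates 1, 2 and 3 and at 21.4, 21.7 and 26.3 FPKM in iECDCs (log2 1.91 ± 0.40, adjusted p = 0.011). Pgm2, Pygl and Gys1 rose by 0.92, 0.79 and 0.53 on the log2 scale (adjusted p = 0.00216, 0.0383 and 0.021). G6pdx, the first dehydrogenase of the pentose phosphate pathway, was 74.6, 104 and 71.9 FPKM against 43.0, 44.0 and 52.2 FPKM (log2 0.86 ± 0.16, adjusted p = 0.00784), and H6pd, its counterpart in the endoplasmic reticulum, was 101, 80.6 and 95.7 FPKM against 43.8, 45.3 and 45.1 FPKM (log2 1.06 ± 0.12, adjusted p = 0.00138). They were the 2 called of 8 pentose phosphate genes, none of which was lower by edgeR (2 at an unadjusted p under 0.05, and 1 called by DESeq2 and by limma). Pgd, the other NADPH-making step of the pathway, was 54.8, 98.9 and 51.8 FPKM against 106, 113 and 122 FPKM (log2 -0.72 ± 0.24, adjusted p = 0.0532, and 4.48e-05 without treated replicate 2). Taldo1, transaldolase, had a log2 fold change of -0.79 ± 0.36 (adjusted p = 0.134, and 4.22e-06 without treated replicate 2). Both are named here after their values were seen.

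Around pyruvate itself, 3 of 8 other pyruvate dehydrogenase and lactate genes were higher and 1 lower. Pdp1 and Pdpr, the phosphatase that reactivates pyruvate dehydrogenase and its regulator, rose by 0.72 and 0.73 on the log2 scale (adjusted p = 0.0121 and 0.0263), and Me3, a mitochondrial malic enzyme, by 1.86 from at most 0.0756 FPKM (adjusted p = 0.027). Me1, the cytosolic malic enzyme, fell by 0.53 (adjusted p = 0.0201). Pck2, mitochondrial phosphoenolpyruvate carboxykinase, was 12.2, 12.3 and 10.6 FPKM against 5.30, 4.99 and 6.11 FPKM (log2 1.11 ± 0.12, adjusted p = 0.000984), while Adpgk, an ADP-dependent glucokinase, fell by 0.66 (adjusted p = 0.00372); 1 of 10 genes of that list was higher and 2 were lower. Of 9 other carriers Slc2a8 and Emb, an ancillary protein of monocarboxylate carriers, were higher (log2 0.96 and 1.07, adjusted p = 0.00328 and 0.0254). In the tricarboxylic acid cycle 1 of 17 was higher (Idh2, log2 0.55, adjusted p = 0.0269) and 1 lower (Idh3a, log2 -0.89, adjusted p = 0.00473). Regulators were higher in 7 of 14 and lower in 1. The higher ones included Epas1 and its partner Arnt (log2 1.04 and 0.69, adjusted p = 0.0267 and 0.0141). Egln3, Ppargc1a and Mycn were also higher (log2 0.58, 2.37 and 0.91, adjusted p = 0.00641, 0.0142 and 0.0488). The lower one was the AMPK subunit Prkaa2 (log2 -0.78, adjusted p = 0.00665).

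Of the genes of these lists named for the SB431542 comparison as past the threshold, Pgm2, G6pdx, H6pd, Pck2, Adpgk, Slc2a8, Idh3a, Egln3 and Prkaa2 passed under every alternative run, and the others missed under at least 1. Gyg missed without iECDC replicate 1 (adjusted p = 0.0545), and Pdp1 without iECDC replicate 1 or 2 or treated replicate 3 (0.0526 to 0.0597). Arnt, Pdpr, Idh2 and Me3 missed without iECDC replicate 1 or 2 or treated replicate 1 or 3, at up to 0.0653, 0.102, 0.115 and 0.108. Epas1, Emb, Me1, Gys1 and Pygl missed without each library in turn except treated replicate 2, at up to 0.0989, 0.0874, 0.0941, 0.0859 and 0.135. Me3 and Pygl also missed by limma on log2(FPKM + 1) (0.118 and 0.0711), and Pygl with the replicate block (0.0502). Ppargc1a missed by the same limma fit (0.0658) and without iECDC replicate 1 or treated replicate 1 or 3 (0.0509 to 0.0697). Mycn missed without each library in turn, by DESeq2, with other size factors and with the replicate block, at up to 0.153.

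Set against pECDCs, where 17.9% of all tested genes were called higher and 17.0% lower, the treated cells had 3 of 8 glycogen genes higher and 1 lower, and 2 of 8 pentose phosphate genes higher and 1 lower. The tricarboxylic acid cycle list had 6 of 17 higher and 1 lower, the pyruvate dehydrogenase list 3 of 8 higher and 1 lower, other glycolysis genes 3 of 10 higher and 3 lower, other carriers 2 of 9 higher and 1 lower, and regulators 5 of 14 higher and 1 lower. Epas1 was 2.25 ± 0.29 and Gyg 1.93 ± 0.42 higher on the log2 scale (adjusted p = 0.0019 and 0.0122), and Gyg missed without pECDC replicate 1, 2 or 3 (0.0538 to 0.0558).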

How the data were processed

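RNA from 9 libraries was sequenced on the Illumina platform. The authors deposited read counts per gene, not normalized, and FPKM values, which equal the counts scaled by the length of the gene and, within a library, by 1 constant. Bowtie2 2.0.6, TopHat2 2.0.9 and the mm9 build are given in the submitters' processing notes, whereas the coordinates of 53462 of the 54532 genes in the table equal those of GENCODE M21 on GRCm38; the counting program and its strand setting are not given in the sources used here. The labels and the study's methods name different library kits. Deposited columns of the authors' comparisons (log2 fold changes, p-values, adjusted p-values and group means of normalized counts) were not used.

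Groups were taken from the labels. The test of counts was that of edgeR 4.0.16 under R 4.3.3 (TMM, filterByExpr with a minimum count of 10 and minimum total count of 15, quasi-likelihood test, Benjamini-Hochberg adjustment over all tested genes, adjusted p under 0.05), with only the 6 libraries compared in the fit. FPKM values gave levels and isozyme shares, the latter compared by two-sided exact permutation tests. Alternatives used DESeq2 1.42.0, limma 3.58.1 on log2(FPKM + 1) or log2(FPKM + 0.1), another scaling, no filter, all 9 libraries, a replicate block and the leaving out of each library. The fits were tested on simulated data. Near-identical pseudogenes were sought with blastn 2.17.0 in GENCODE M21 transcripts (95% identity over 300 bases), a search chosen after Gapdh had been seen. Promoters came from RefSeq (GRCm38.p6), with 32 of the 33 genes matched by symbol, and motifs were searched on both strands.

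The genes and the other lists were chosen with earlier results of these data known. All 33 genes may be named, and genes of the other lists where the adjusted p was under 0.05 and the absolute log2 fold change at least 0.5. Ctgf checked the inhibitor. Some genes of the other lists are not reported here and were left out of the counts.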

Additional observations from a re-analysis of the deposited data

How the results depend on the processing

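With 1 library left out at a time, the number of all genes called ranged from 1036 to 4467 between iECDCs and pECDCs (2258 with all 6 libraries), from 1707 to 7001 between treated and untreated iECDCs (4061) and from 2453 to 9188 between treated cells and pECDCs (4881). Of the set, 2 to 12, 2 to 11 and 4 to 17 rows were higher and 3 to 9, 2 to 8 and 1 to 10 lower. Of all tested genes, 2.57 to 15.5%, 7.07 to 25.3% and 8.64 to 31.7% were higher in these fits. The shares lower were 4.82 to 16.2%, 5.13 to 24.8% and 8.45 to 32.3%. The highest counts came without iECDC replicate 3 in the first comparison and without treated replicate 2 in the others; the lone pair left in a group was assumed to vary like the other group. Without both of these libraries 8951 genes were called between treated and untreated iECDCs, and 12 rows of the set were lower, among 31.9% of all genes. The log2 fold change of Slc2a1 between iECDCs and pECDCs ranged from -0.10 to 0.12, and it was past the threshold only without iECDC replicate 3. With no filter on low counts 8 rows were lower between iECDCs and pECDCs, among 7.19% of all genes. With all 9 libraries in the fit that comparison called 671 genes, 1 row of the set higher and 3 lower, among 1.46% and 3.26% of all genes. In that fit 5 rows were lower between treated and untreated iECDCs, among 20.3% of all genes, and the cause was not tested. DESeq2, other size factors, limma on FPKM and the Pkm count from its FPKM left each of these counts within 1.5 times. Replicate numbers did not pair the libraries, since deviations of same-numbered libraries correlated between -0.25 and 0.06. With the replicate block 1 row was lower between treated cells and pECDCs, among 13.8% of all genes. The higher and lower rows were then 4 and 5 between iECDCs and pECDCs, among 5.25% and 7.77% of all genes. Between treated and untreated iECDCs they were 7 and 2, among 12.1% and 10.3% of all genes. Genes near 10 counts, such as Aldoc, were at the limit of this depth.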
